A study of Mus musculus with 4 samples.

Results

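Motile cilia are the beating, whip-like organelles that multiciliated cells of the airway and of the brain ventricles carry on their surface. The gene list described here holds 33 genes of the motile cilium, chosen by symbol for their known place in the ciliary axoneme or in the programme of the multiciliated cell. Of these, 31 had an expression value in all 4 libraries, out of 23946 genes with a value. The remaining 2, *Dnai1* and *Dnai2*, are listed under older symbols and are given separately. The list was drawn up with earlier results of these data known, so shares of all genes given below are background, not a test. Bulk RNA-seq measured frontal and parietal bone of the skull vault in wild-type mice and in *Twist1*+/- mice, which carry 1 inactive allele of *Twist1*, a transcription factor of skull and suture development, in every cell. All mice were of the C57BL/6J background and at postnatal day 21. The labels give 12 mice for each strain and do not say how their RNA was combined. Each genotype and bone had 1 library (wild-type frontal, wild-type parietal, *Twist1*+/- frontal, *Twist1*+/- parietal), so no comparison has a replicate check and no test is given. The study describes the bones as taken with the pericranium and the dura mater.

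In a multiciliated cell, *Foxj1* and the RFX family of transcription factors switch on the genes of the axoneme, the bundle of microtubule doublets around a central pair that forms the core of the cilium. Dynein arms on the doublets pull neighbouring doublets past each other, and radial spokes and central pair proteins pace that sliding into a beat. Most other cells, osteoblasts included, carry a single primary cilium, which shares the intraflagellar transport machinery with motile cilia but has no dynein arms, spokes or central pair. In the mouse, motile cilia are known from the respiratory epithelium of nose and trachea, the ependyma and choroid plexus of the brain, the oviduct, and the sperm tail.

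Levels are given in FPKM, the number of sequenced fragments scaled to transcript length and to the mapped reads of the library. *Twist1* itself stood at 59.0 FPKM in frontal and 52.5 in parietal bone of wild-type mice, 30.4 in frontal bone of *Twist1*+/- mice and 50.7 in the library labelled *Twist1*+/- parietal, so that it was lower under the *Twist1*+/- label in the frontal pair and nearly level in the parietal pair. For this reason the latter library is named by its label throughout, and each direction drawn from it rests on that label. The bone markers *Spp1*, *Bglap* and *Ibsp* were high in every library, whereas *Col1a1* (5595 FPKM) and *Col1a2* (6326 FPKM) had a value only in wild-type parietal and were listed at 0 in the other 3 libraries. The weight of a single read, judged from genes of very low level, was 1.77 times as large in wild-type parietal, 1.33 times in *Twist1*+/- frontal and 1.75 times in the library labelled *Twist1*+/- parietal as in wild-type frontal, which was thus the deepest library. From this weight and transcript length an approximate read number was set behind each value, with an exact 95% Poisson interval that covers counting error only. The median member rested on about 50 reads in frontal and 9.2 in parietal bone of wild-type mice, 90 in frontal bone of *Twist1*+/- mice and 52 in the library labelled *Twist1*+/- parietal. In wild-type parietal 16 of the 31 members rested on fewer than 10 reads, and in the other libraries none did.

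Most of the motile cilia genes were low in all 4 libraries, and most shared an order across them. Both libraries labelled *Twist1*+/- were above both wild-type libraries for 24 of 31 members, an order found in 14.2% of 20293 genes with a value above 0. Wild-type parietal was the lowest library for 26 members, against 31.6% of all genes. For 22 members wild-type parietal was lowest and wild-type frontal next, against 9.44% of all genes. The median member stood at 0.641 FPKM in frontal and 0.236 in parietal bone of wild-type mice, 1.51 in frontal bone of *Twist1*+/- mice and 1.40 in the library labelled *Twist1*+/- parietal. The number of members at 1 FPKM or more was 14, 4, 21 and 18 in the same order, and no member was listed at 0 in any library. *Twist1*+/- frontal was the highest library for 18 members and the library labelled *Twist1*+/- parietal for 11. In bulk RNA, fewer cells of a type and less RNA per cell cannot be told apart. Without the wild-type parietal library, both libraries labelled *Twist1*+/- were above wild-type frontal for 27 members. Without the library labelled *Twist1*+/- parietal, *Twist1*+/- frontal was above both wild-type libraries for 27 members. No share of all genes is at hand for either of these orders or for the counts of highest library, so they are description only.

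**Figure D1:**
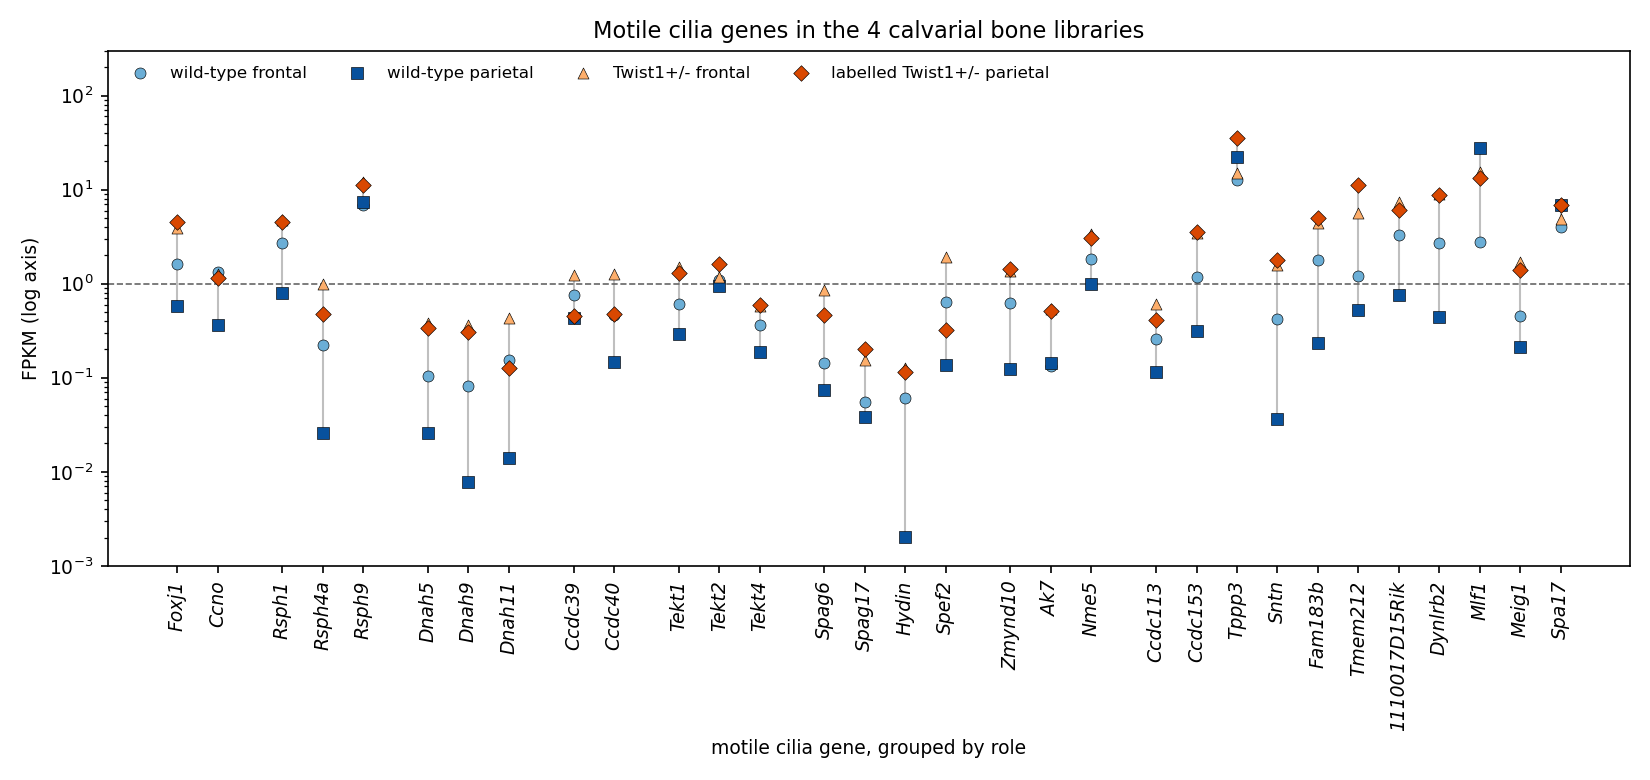
FPKM (log axis) of the 31 motile cilia genes in each of the 4 libraries, grouped by role, with a grey line from the lowest to the highest library of each gene and a dashed line at 1 FPKM. The square of wild-type parietal lies at the bottom of the line for 26 genes, and at its top for 1, *Mlf1*.

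The members differed in how they followed this order, and are described by role. *Foxj1*, the transcription factor that drives the motile cilia programme, stood at 1.62 FPKM in frontal and 0.580 in parietal bone of wild-type mice, 3.92 in frontal bone of *Twist1*+/- mice and 4.55 in the library labelled *Twist1*+/- parietal. It lies at chr11:116192018-116196713 on the minus strand (mm9, GENCODE M1). Its counting intervals in both libraries labelled *Twist1*+/-, from 3.503 to 4.37 and from 4.03 to 5.10 FPKM, lay above those of the wild-type libraries, 1.39 to 1.88 in frontal and 0.408 to 0.807 in parietal. *Ccno*, which acts in the multiplication of centrioles, was an exception, at 1.32, 0.366, 1.26 and 1.15 FPKM in the same library order: only wild-type parietal stood apart, and the other 3 libraries had overlapping counting intervals.

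Of the radial spoke head genes, *Rsph1* stood at 2.74 FPKM in frontal and 0.803 in parietal bone of wild-type mice, 4.77 in frontal bone of *Twist1*+/- mice and 4.57 in the library labelled *Twist1*+/- parietal. *Rsph9*, at 6.84, 7.32, 12.0 and 11.3 FPKM, was higher in both libraries labelled *Twist1*+/- but did not differ between the wild-type bones beyond its counting intervals (5.99 to 7.76 and 6.17 to 8.63 FPKM). *Rsph4a* ranged from 0.0257 FPKM in wild-type parietal to 0.985 in *Twist1*+/- frontal. Radial spoke genes thus shared the higher level in the libraries labelled *Twist1*+/-, and *Rsph9* lacked the low value in wild-type parietal.

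The outer arm dynein heavy chains, the motors that drive the beat, stayed below 1 FPKM in every library. *Dnah5* ranged from 0.0259 FPKM in wild-type parietal to 0.380 in *Twist1*+/- frontal. *Dnah9* ranged from 0.00774 to 0.364 FPKM in the same 2 libraries. *Dnah11* was also lowest in wild-type parietal, at 0.0139 FPKM, and highest in *Twist1*+/- frontal, at 0.435, but stood at 0.127 in the library labelled *Twist1*+/- parietal, within its counting interval in wild-type frontal (0.126 to 0.189 FPKM). These are long transcripts, so the *Twist1*+/- frontal values rest on about 198, 167 and 204 reads in spite of their low FPKM, whereas those of wild-type parietal rest on about 10, 2.7 and 4.9. The intermediate chains absent under their listed symbols were found as *Dnaic1* and *Dnaic2*, which RefSeq lists as the same genes. *Dnaic1* stood at 0.283, 0.1902, 0.313 and 0.398 FPKM and *Dnaic2* at 0.590, 0.354, 0.722 and 0.767, in the library order used above, with wild-type parietal again the lowest. They enter none of the counts.

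*Ccdc39* and *Ccdc40*, which together form the ruler that spaces dyneins and spokes along the doublet, were both highest in *Twist1*+/- frontal. *Ccdc39* stood at 0.758 FPKM in frontal and 0.436 in parietal bone of wild-type mice, 1.23 in frontal bone of *Twist1*+/- mice and 0.450 in the library labelled *Twist1*+/- parietal. *Ccdc40* stood at 0.466, 0.147, 1.28 and 0.478 FPKM in the same order. For neither gene did the library labelled *Twist1*+/- parietal exceed wild-type frontal beyond the counting intervals, unlike *Foxj1* or *Rsph1*. The *Ccdc39* interval in that library (0.325 to 0.6195 FPKM) lay just below that of wild-type frontal (0.6243 to 0.9062). It overlapped that of wild-type parietal (0.3097 to 0.6007).

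The tektins, filament proteins within the doublets, differed among themselves. *Tekt1* stood at 0.603 FPKM in frontal and 0.291 in parietal bone of wild-type mice, 1.51 in frontal bone of *Twist1*+/- mice and 1.29 in the library labelled *Twist1*+/- parietal. *Tekt2* varied little, at 1.09, 0.954, 1.19 and 1.60 FPKM. *Tekt4* ranged from 0.188 FPKM in wild-type parietal to 0.587 in the library labelled *Twist1*+/- parietal. An exon of *Tekt2* overlaps one of *Gm12945* on the other strand in GENCODE M1, and the counting is not stated to use strand, so reads of the pair may not be told apart.

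Among the central pair genes, *Spef2* showed the widest gap between the libraries labelled *Twist1*+/-, standing at 0.641 FPKM in frontal and 0.136 in parietal bone of wild-type mice, 1.92 in frontal bone of *Twist1*+/- mice and 0.323 in the library labelled *Twist1*+/- parietal. *Spag6* ranged from 0.0742 FPKM in wild-type parietal to 0.851 in *Twist1*+/- frontal, and *Spag17* from 0.0381 in wild-type parietal to 0.202 in the library labelled *Twist1*+/- parietal. *Hydin*, one of the longest members, ranged from 0.00204 FPKM in wild-type parietal, the weight of about 0.8 of a read, to 0.127 in *Twist1*+/- frontal. The symbol *Spag6* stands for different loci in GENCODE M1 and in RefSeq, so its locus is uncertain. *Hydin* and *Spag17*, like *Ccdc39*, *Dnah9* and *Dnah11*, overlap an exon of a gene on the other strand.

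*Zmynd10*, a factor for the assembly of dynein arms in the cytoplasm, stood at 0.622 FPKM in frontal and 0.123 in parietal bone of wild-type mice, 1.37 in frontal bone of *Twist1*+/- mice and 1.44 in the library labelled *Twist1*+/- parietal. *Nme5*, of the nucleoside diphosphate kinase family, stood at 1.84, 0.991, 3.42 and 3.10 FPKM. The adenylate kinase gene *Ak7* ranged from 0.135 FPKM in wild-type frontal to 0.534 in *Twist1*+/- frontal, and its wild-type libraries were nearly level. All of these genes were higher in both libraries labelled *Twist1*+/- than in either wild-type library.

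The remaining members code for other proteins of the axoneme or are known markers of ciliated cells, and include those with the widest range. *Dynlrb2*, a roadblock-type dynein light chain (chr8:119028915-119039796, plus strand), stood at 2.69 FPKM in frontal and 0.439 in parietal bone of wild-type mice, 8.99 in frontal bone of *Twist1*+/- mice and 8.79 in the library labelled *Twist1*+/- parietal. *Fam183b* (chr11:58606299-58615462, minus strand) stood at 1.78, 0.236, 4.39 and 5.001 FPKM. *Sntn*, which codes for sentan of the ciliary tip (chr14:14503390-14515662, plus strand), stood at 0.417, 0.0368, 1.58 and 1.80 FPKM. In these 3 genes the counting intervals of both libraries labelled *Twist1*+/- lay above those of both wild-type libraries. *Tmem212* (chr3:27764988-27795290, minus strand) stood at 1.21, 0.530, 5.59 and 11.1 FPKM and was the member with the largest excess of the library labelled *Twist1*+/- parietal over *Twist1*+/- frontal after *Tppp3*. The gene listed as 1110017D15Rik stood at 3.33, 0.7501, 7.46 and 6.02 FPKM. *Ccdc153* stood at 1.17, 0.314, 3.46 and 3.56 FPKM. Both followed the order of *Foxj1* in having wild-type parietal lowest and the libraries labelled *Twist1*+/- highest. *Meig1*, known from sperm formation, stood at 0.448, 0.214, 1.70 and 1.40 FPKM, and *Ccdc113* ranged from 0.116 FPKM in wild-type parietal to 0.610 in *Twist1*+/- frontal.

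**Figure D2:**
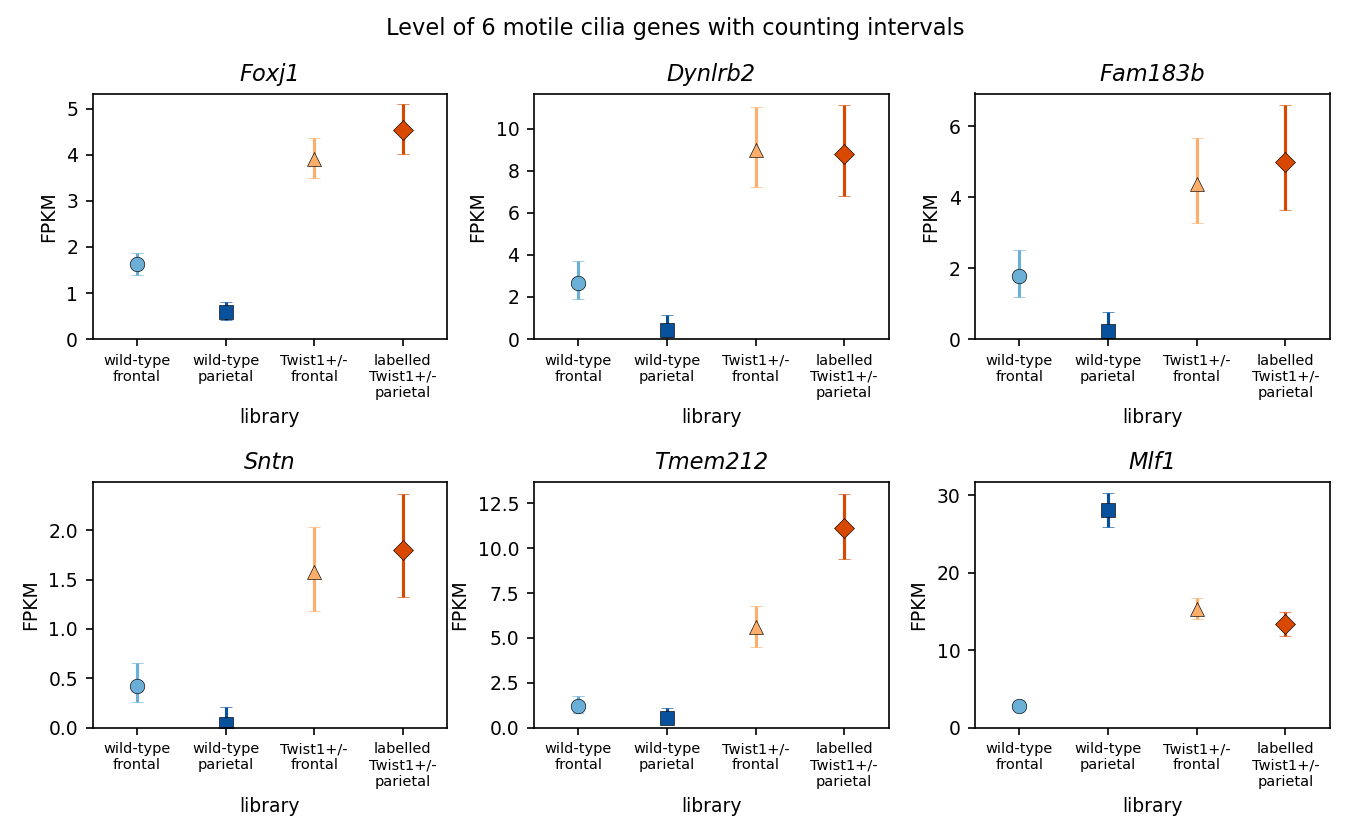
FPKM of 6 members in the 4 libraries, each with its 95% Poisson interval (bars, counting error only, from approximate read numbers). In *Foxj1*, *Dynlrb2*, *Fam183b*, *Sntn* and *Tmem212* both libraries labelled *Twist1*+/- are above both wild-type libraries, while *Mlf1* is highest in wild-type parietal (28.1 FPKM) and lowest in wild-type frontal (2.81 FPKM).

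The 3 members left did not share this order. *Mlf1* (chr3:67178019-67203925, plus strand), also known from muscle and blood-forming cells, stood at 2.81 FPKM in frontal and 28.1 in parietal bone of wild-type mice, 15.3 in frontal bone of *Twist1*+/- mice and 13.3 in the library labelled *Twist1*+/- parietal. *Tppp3*, a tubulin-binding protein gene that is also expressed in fibroblast-like cells of tendon and other connective tissue, stood at 12.5, 22.4, 15.2 and 35.7 FPKM and was higher in both parietal libraries than in both frontal ones. *Spa17*, whose product binds protein kinase A anchoring proteins, stood at 3.99, 6.79, 4.93 and 6.80 FPKM, with the parietal libraries likewise the higher. Together with *Rsph9* these were the members with the highest level in wild-type parietal. They carried a large part of the summed level: over all 31 members the FPKM summed to 50.5 in frontal and 72.6 in parietal bone of wild-type mice, 107.5 in frontal bone of *Twist1*+/- mice and 127.3 in the library labelled *Twist1*+/- parietal. Without these 4 genes, a choice made after their values were seen, the sums of the other 27 were 24.3, 7.98, 60.04 and 60.2 FPKM, and wild-type parietal became the lowest library. Leaving out the highest members of that library lowers its sum by the choice itself, so no conclusion is drawn from the new order.

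The comparison of genotypes sets the library labelled *Twist1*+/- against the wild-type one within each bone. In the parietal pair *Twist1* itself differed by only 0.966-fold, so that comparison is one of labels. A gene was called different when its FPKM values differed by more than 3-fold and the higher reached 1 FPKM. In parietal bone, 13 members were called higher in the library labelled *Twist1*+/- than in wild-type and 0 lower, against 5.25% and 2.94% of 13914 genes that reached 1 FPKM in either library, and 18 members reached that level. The 13 were *Foxj1*, *Ccno*, *Rsph1*, *Tekt1*, *Zmynd10*, *Nme5*, *Ccdc153*, *Sntn*, *Fam183b*, *Tmem212*, 1110017D15Rik, *Dynlrb2* and *Meig1*. *Foxj1* was 7.84-fold higher, *Rsph1* 5.69-fold, *Zmynd10* 11.7-fold, *Ccdc153* 11.3-fold, 1110017D15Rik 8.03-fold and *Tmem212* 20.9-fold. For *Sntn*, *Fam183b* and *Meig1* the wild-type value rests on about 1.0, 2.2 and 2.8 reads, so the size of the difference is poorly set. The lower bound in the library labelled *Twist1*+/- parietal was still above the upper bound in wild-type for *Sntn* (1.32 against 0.210 FPKM) and for *Fam183b* (3.65 against 0.772), and only just so for *Meig1* (0.817 against 0.680). For *Dynlrb2*, *Zmynd10*, *Tmem212*, *Ccdc153* and *Tekt1* the wild-type value rests on about 3.3, 4.9, 7.0, 7.1 and 9.2 reads. The sizes of their differences are loosely set too, although the intervals of the compared libraries did not overlap. *Ccno* (3.15-fold) and *Nme5* (3.13-fold) lay just above the threshold. Of all 31 members, 30 had the higher value in the library labelled *Twist1*+/-, and the median ratio was 5.69 (quartiles 3.12 and 12.3). *Mlf1* was the exception, with a log2 ratio of -1.08. A share of all genes with the higher value is not at hand, here or in the comparisons below. On the log2(FPKM + 1) scale, which compresses differences between low values, the median member difference was 0.53, and that of all genes was 0.00. Among genes that reached 1 FPKM in either library it was -0.05.

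In frontal bone, 5 members were called higher in *Twist1*+/- than in wild-type and 0 lower, against 3.17% and 0.725% of 14341 genes, and 21 members reached 1 FPKM. These were *Mlf1* (5.45-fold), *Tmem212* (4.62-fold), *Meig1* (3.80-fold), *Sntn* (3.78-fold) and *Dynlrb2* (3.35-fold). *Spef2* (2.996-fold) and *Ccdc153* (2.95-fold) lay just under the threshold. Again 30 of 31 members had the higher value in *Twist1*+/-, with *Ccno* the exception at a log2 ratio of -0.07. The median ratio was 2.50 (quartiles 1.80 and 3.71), and the median difference in log2(FPKM + 1) was 0.64, against 0.00 for all genes. For genes that reached 1 FPKM in either library that median was -0.03. *Foxj1* was 2.42-fold higher, *Rsph1* 1.74-fold, *Zmynd10* 2.19-fold and *Fam183b* 2.47-fold. The parietal and frontal comparisons share no library, and whether their ratios differ from each other could not be tested with 1 library each.

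**Figure D3:**
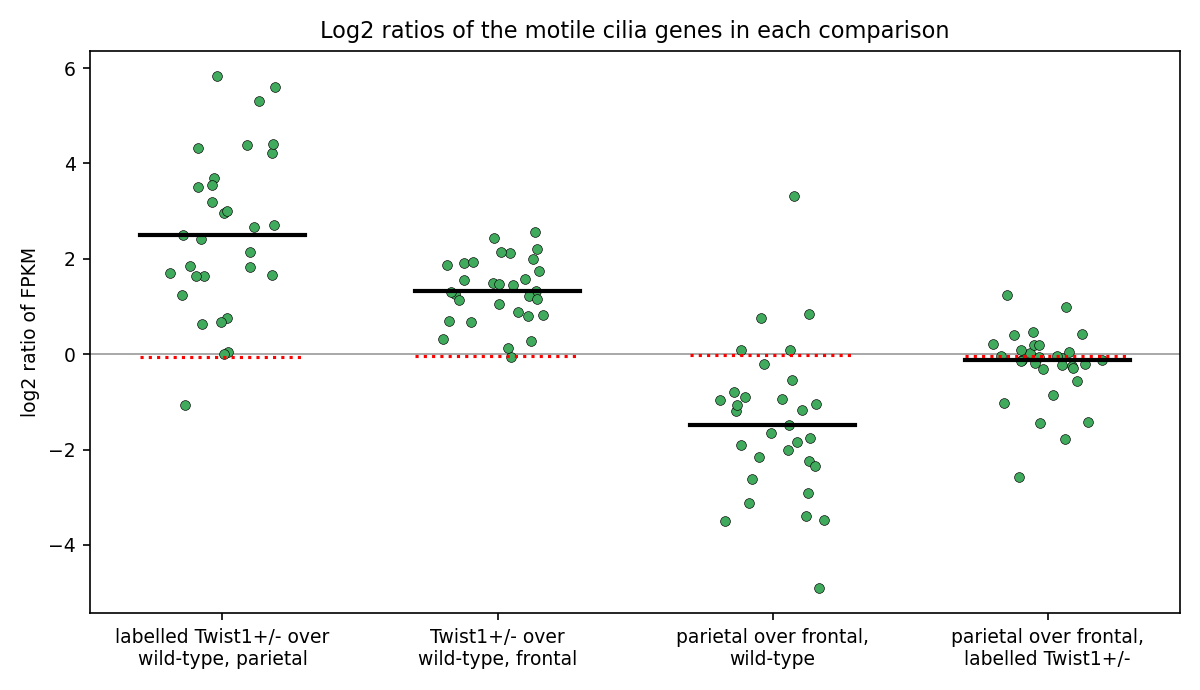
Log2 ratio of FPKM of each of the 31 motile cilia genes (points, spread sideways for display) in the 4 comparisons, with their median (black line) and the median of all genes that reach 1 FPKM (red dotted line). The member median is 2.51 in the parietal and 1.32 in the frontal genotype comparison, -1.48 between the wild-type bones and -0.13 between the libraries labelled *Twist1*+/-, while the median of all genes stays between -0.06 and -0.01.

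The comparison of bones asks how frontal bone, of neural crest origin, and parietal bone, of mesoderm origin, differed within a genotype. It uses the same 4 libraries again, so it is not independent of the comparisons of genotype. In wild-type mice, 6 members were called lower in parietal than in frontal bone and 1 higher, against 9.2% and 4.07% of 14214 genes, with 14 members at 1 FPKM or more. Those lower were *Dynlrb2*, *Fam183b*, 1110017D15Rik (4.44-fold), *Ccdc153* (3.74-fold), *Ccno* (3.61-fold) and *Rsph1* (3.41-fold), and the one higher was *Mlf1* (9.99-fold). For *Dynlrb2* and *Fam183b* the parietal value rests on about 3.3 and 2.2 reads, and its upper bound (1.16 and 0.772 FPKM) was below the lower bound in frontal bone (1.89 and 1.17 FPKM). The parietal value of *Ccdc153* rests on about 7.1 reads. With 1 FPKM added to both values before the ratio, 0 members were called lower and 1, *Mlf1*, higher. *Foxj1* was 2.80-fold lower and missed the threshold. Only 5 of 31 members had the higher value in wild-type parietal, and the median difference in log2(FPKM + 1) was -0.26. Among genes that reached 1 FPKM in either library it was -0.01. Between the libraries labelled *Twist1*+/-, 0 members were called higher in parietal and 1 lower, *Spef2* (5.94-fold), against 0.846% and 3.24% of 14305 genes. The median ratio there was 0.914, 11 of 31 members had the higher value in parietal, and the median difference in log2(FPKM + 1) was -0.05. Among genes that reached 1 FPKM in either of the 2 it was -0.03. *Foxj1* (1.16-fold), *Dynlrb2* (0.978-fold) and *Rsph1* (0.958-fold) were nearly level between these libraries, and their counting intervals overlapped.

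Genes of the motile cilium outside the member list were taken from a second list of 66 genes, of which 62 had a value (inner arm and other dyneins, docking and assembly factors, nexin links and further axoneme genes). In the parietal genotype comparison 8 of the 26 that reached 1 FPKM were called higher and 0 lower, against 5.25% and 2.94% of all genes. In the frontal one 4 of 28 (*Stoml3*, *Dydc2*, *Morn5* and *Pifo*) were higher and 0 lower, against 3.17% and 0.725%. Between wild-type bones 0 of 22 were higher and 3 lower in parietal (*Stoml3*, *Capsl* and *Pifo*), against 4.07% and 9.2% of all genes. Between the libraries labelled *Twist1*+/-, 0 of 31 were higher and 2 lower (*Stoml3* and *Dydc2*), against 0.846% and 3.24%. Both libraries labelled *Twist1*+/- were above both wild-type libraries for 36 of 62, against 14.2% of all genes. These shares of all genes apply to the lists below as well, whose calls likewise concern only genes at 1 FPKM or more. *Stoml3*, which is also a marker of olfactory neurons, was the highest and the most variable, at 21.8 FPKM in frontal and 1.32 in parietal bone of wild-type mice, 68.3 in frontal bone of *Twist1*+/- mice and 17.9 in the library labelled *Twist1*+/- parietal. *Pifo*, a gene of ciliary vesicles and cilium disassembly, stood at 1.08, 0.247, 3.96 and 3.03 FPKM. *Enkur*, named for the adaptor protein enkurin, stood at 1.24, 0.490, 3.34 and 2.07 FPKM. *Spef1* stood at 9.76, 7.54, 11.8 and 17.9 FPKM, the same order of libraries as *Foxj1*. Wild-type parietal was the lowest library for all of these genes, whereas *Lztfl1* (7.41, 8.004, 7.26 and 3.93 FPKM) was lowest in the library labelled *Twist1*+/- parietal.

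The regulators upstream of multiciliation were less alike in order. Both libraries labelled *Twist1*+/- were above both wild-type libraries for 4 of 12, against 14.2% of all genes. In each of these comparisons 6 of the 12 reached 1 FPKM. Of them, 1 (*Rfx2*) was called higher in the parietal genotype comparison and 0 in the frontal one. Between wild-type bones, 2 (*Rfx2* and *Myb*) were lower in parietal. *E2f4* stood at 45.4, 16.7, 34.6 and 41.8 FPKM, *Myb* at 26.0, 4.80, 21.0 and 12.5, *E2f5* at 6.33, 12.0, 6.85 and 8.62, and *Rfx2* at 7.11, 1.57, 4.53 and 5.23. *E2f4* and *Myb* are also expressed in dividing and blood-forming cells. None of these 4 had both libraries labelled *Twist1*+/- above both wild-type libraries. The 4 of 12 that did were *Foxn4*, *Trp73*, *Ccdc67* and *Cdc20b*. All stayed below 1 FPKM in every library, and their highest value was 0.259, of *Trp73* in *Twist1*+/- frontal.

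The transport genes shared by motile and primary cilia had another order. All 34 genes of intraflagellar transport and the primary cilium had a value. Of those that reached 1 FPKM, 0 of 32 in the parietal and 0 of 33 in the frontal genotype comparison were called in any direction. Between the wild-type bones 1 of 33, *Ift140*, was lower in parietal. Wild-type parietal was the highest library for 21 of 34, compared with 1 of 31 members. No share of all genes is at hand for that order, so the counts are description only. Both libraries labelled *Twist1*+/- were above both wild-type libraries for 3 of 34, against 14.2% of all genes. *Ift20*, a subunit that shuttles between the Golgi and the cilium, stood at 78.5 FPKM in frontal and 160.3 in parietal bone of wild-type mice, 63.1 in frontal bone of *Twist1*+/- mice and 102.3 in the library labelled *Twist1*+/- parietal. *Arl3* (35.4, 56.7, 38.4 and 41.4 FPKM) and *Ift27* (20.1, 29.5, 18.9 and 28.8 FPKM) were likewise highest in wild-type parietal.

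The marker lists of epithelium moved with the members, and their part in the result was not tested. Of 14 markers of epithelium in general, 10 were called higher and 0 lower in the parietal genotype comparison, 8 and 0 in the frontal one, and 0 higher and 3 lower (*Cdh1*, *Cldn3* and *Cldn7*) in wild-type parietal against wild-type frontal. Their FPKM summed to 23.5 in frontal and 11.2 in parietal bone of wild-type mice, 82.7 in frontal bone of *Twist1*+/- mice and 64.8 in the library labelled *Twist1*+/- parietal, and none was listed at 0. *Epcam* stood at 3.86, 3.46, 15.5 and 16.6 FPKM, *Krt18* at 3.91, 1.48, 18.1 and 13.4, and *Cldn3* at 2.37, 0.312, 10.4 and 7.52. Both libraries labelled *Twist1*+/- were above both wild-type libraries for 13 of the 14. Set against the epithelium sum, the sum of the 27 members without *Tppp3*, *Mlf1*, *Spa17* and *Rsph9* came to 1.04 in frontal and 0.715 in parietal bone of wild-type mice, 0.726 in frontal bone of *Twist1*+/- mice and 0.929 in the library labelled *Twist1*+/- parietal. Over all 31 members the same ratio was 2.15, 6.50, 1.30 and 1.96, so its order turned on those 4 genes. They were left out after their values were seen, and no direction is drawn from the ratio.

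Of 14 markers of secretory cells of the airway, 7 were called higher and 0 lower in the parietal genotype comparison and 8 and 0 in the frontal one, with 0 higher and 5 lower in parietal (*Bpifa1*, *Reg3g*, *Cyp2f2*, *Aqp5* and *Ltf*) between the wild-type bones. The club cell markers *Scgb1a1* and *Scgb3a2* were listed at 0 in all 4 libraries. *Bpifa1*, a secreted protein of nasal and upper airway lining, stood at 107.8 FPKM in frontal and 14.7 in parietal bone of wild-type mice, 624.7 in frontal bone of *Twist1*+/- mice and 688.1 in the library labelled *Twist1*+/- parietal. *Lyz2* (898.0, 477.2, 945.0 and 570.2 FPKM) and *Ltf* (250.5, 50.4, 269.1 and 140.2 FPKM) are also made by myeloid cells of the marrow. The list summed to between 585.7 and 1334 FPKM in the wild-type libraries and between 1668 and 2167 in those labelled *Twist1*+/-. Of 12 olfactory epithelium markers, 8 were called higher in the parietal and 7 in the frontal genotype comparison, with 0 lower, while 9 were lower in wild-type parietal than in wild-type frontal and 6 lower in the library labelled *Twist1*+/- parietal than in *Twist1*+/- frontal. They summed to 198.6, 52.5, 683.2 and 361.0 FPKM in the library order used above. *Cyp2a5* stood at 23.9, 3.18, 151.2 and 101.7 FPKM, *Gng13* at 43.3, 1.39, 105.5 and 77.3, and *Omp*, of mature olfactory neurons, at 34.5, 1.86, 115.6 and 58.8.

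The lists of other tissues with motile cilia, of brain and its coverings and of bone followed the members in part or not at all. Of 12 choroid plexus markers, 6 reached 1 FPKM in the parietal and 7 in the frontal genotype comparison. In each, 2 (*Clic6* and *Otx2*) were called higher and 0 lower. The sum of the 12 was highest in wild-type frontal (259.5 FPKM) and lowest in wild-type parietal (152.2). The median choroid plexus marker, as a percent of its own highest library, stood at 35.8, 28.3, 84.2 and 43.6%, with wild-type parietal lowest and wild-type frontal next as in the members. For 4 of the 12, against 14.2% of all genes, both libraries labelled *Twist1*+/- were above both wild-type libraries. *Ttr*, the defining transcript of that tissue, stood at 20.02, 23.7, 10.5 and 9.23 FPKM, *Aqp1* at 227.8, 117.7, 156.0 and 158.1, and *Calml4* at 3.13, 5.50, 8.03 and 3.88. Of 12 spermatid markers, 5 to 7 were listed at 0 in each library and the sums, 2.41, 1.84, 2.66 and 3.52 FPKM, were low but had wild-type parietal lowest and both libraries labelled *Twist1*+/- highest. Single spermatid markers had both libraries labelled *Twist1*+/- above both wild-type libraries in 3 of 12, against 14.2% of all genes. *Tssk6* (1.13, 1.17, 1.47 and 2.06 FPKM), *Prm1* (1.03, 0.152, 0.448 and 1.06 FPKM) and *Spata18* (0.0448, 0.0581, 0.494 and 0.277 FPKM) were the highest of them. Of the 2 that reached 1 FPKM in each genotype comparison, 1, *Prm1*, was called higher, in the parietal one. Of 12 neuron and glia markers, 7 were called higher in the parietal genotype comparison, 0 higher and 2 lower (*Slc17a7* and *Gfap*) in the frontal one, and 11 lower in wild-type parietal than in wild-type frontal, with sums of 421.2, 66.5, 418.8 and 369.9 FPKM. *Mbp* stood at 107.7, 34.8, 207.7 and 270.0 FPKM, *Snap25* at 50.1, 1.53, 50.8 and 18.6, and *Tubb3* at 32.2, 8.75, 46.0 and 25.8. Of 10 meninges markers, 1 (*Ptgds*) was called higher in the parietal genotype comparison and 3 (*Ptgds*, *Slc6a13* and *Slc22a6*) lower in the frontal one, with *Lum* at 661.0, 1477, 528.1 and 830.4 FPKM, *Ptgds* at 1975, 52.8, 326.7 and 428.5, and *Igfbp2* at 46.6, 32.3, 22.6 and 24.6. Of 12 osteoblast and osteocyte markers, 1 (*Sost*) was called higher and 0 of those above 0 in both libraries lower in the parietal genotype comparison. *Col1a1* and *Col1a2* were counted as lower there by the rule on values listed at 0, but an exact 0 for these genes in bone can be a failed estimate, so no direction is drawn from them. *Spp1* stood at 4107, 12240, 4579 and 6724 FPKM and *Bglap* at 6811, 5220, 5371 and 7982.

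**Figure D4:**
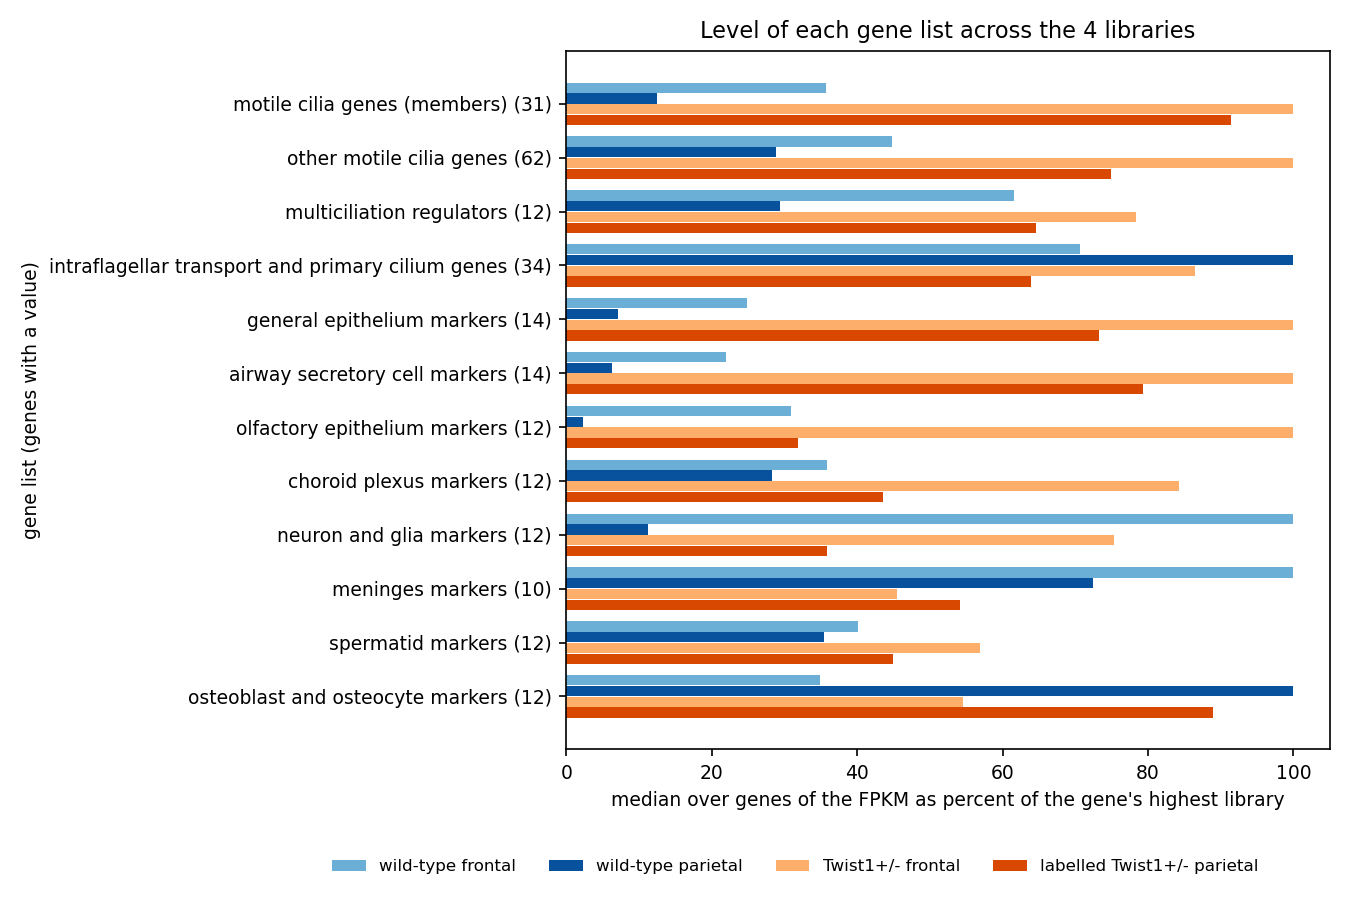
For each gene list and library, the median over genes of the FPKM as a percent of the gene's own highest library (bars from 0; number of genes with a value in brackets). The members stand at 35.7, 12.5, 100 and 91.4% in wild-type frontal, wild-type parietal, *Twist1*+/- frontal and the library labelled *Twist1*+/- parietal, general epithelium markers at 24.9, 7.18, 100 and 73.2%, and genes of intraflagellar transport and the primary cilium at 70.7, 100, 86.5 and 63.9%.

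Because most members moved together, the promoters of the members were read for the motifs of the factors known to drive them. A promoter (250 bases before to 50 after the RefSeq start) was at hand for 26 of the 31 members. The RFX half-site GTTGCC, on either strand, was present in 15 of 26 (57.7%), against 14.1% of 27025 genes. The same letters were found in 13 of 28 genes of intraflagellar transport and the primary cilium (46.4%), whose levels had another order, in 19 of 41 other motile cilia genes (46.3%) and in 0 of 8 epithelium markers. The full RFX X-box, searched on either strand as GT, any 2 bases, CC, any 3 bases, G, any 2 bases and AC, was present in 6 of 26 members (23.1%), against 5.26% of all genes, and may overlap a half-site. The forkhead motif TGTTTAC was present in 3 of 26 members (11.5%), against 4.05% of all genes. It was present in 3 of 41 other motile cilia genes (7.32%), 0 of 28 transport genes and 0 of 8 epithelium markers. A match is a description of the letters and not a bound site. Shown here, 5′ to 3′ on the strand of the gene, are 60 bases around the half-site upstream of 5 of the members called higher in the parietal genotype comparison, all between annotated genes (RefSeq promoters, found in mm9 by exact match), with half-site and X-box matches in capitals.
Ccno: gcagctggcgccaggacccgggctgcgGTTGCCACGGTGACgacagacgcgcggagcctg
Ccdc153: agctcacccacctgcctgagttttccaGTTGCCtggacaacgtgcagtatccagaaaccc
Sntn: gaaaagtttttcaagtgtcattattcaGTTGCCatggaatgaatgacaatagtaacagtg
Fam183b: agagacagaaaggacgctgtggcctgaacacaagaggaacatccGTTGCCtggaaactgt
Dynlrb2: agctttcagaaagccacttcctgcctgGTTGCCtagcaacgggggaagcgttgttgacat

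The stretch of *Ccno* is chr13:113777764-113777823 on the plus strand, and its half-site, which begins 219 bases before the start, is part of an X-box match. That of *Ccdc153* is chr9:44048581-44048640 on the plus strand, with the half-site 152 bases before the start, and that of *Sntn* is chr14:14503297-14503356 on the plus strand, with the half-site at 66 bases. The stretch of *Fam183b* is chr11:58615463-58615522 on the minus strand and that of *Dynlrb2* is chr8:119028837-119028896 on the plus strand, with half-sites 16 and 51 bases before the start. The X-box letters were searched at a fixed spacing. A stretch without a match, such as that of *Dynlrb2* or *Ccdc153*, may hold the motif at another spacing. Whether motif and level go together was not tested. The members with a transcript lie on 14 chromosomes. No stretch of 75 bases in their transcripts was shared with a transcript of another gene, and their GC content (median 49.0%, range 39.9 to 61.4%) was close to that of all genes at 1 FPKM or more (median 50.6%).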

How the data were processed

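Bulk poly(A) RNA-seq of 4 mouse calvarial bone libraries was used. Per the study's methods and the submitters' processing notes, the authors aligned reads to mm9 with STAR 2.4.2a and computed FPKM per gene with Cuffdiff (Cufflinks 2.2.1). The deposited values are these FPKM, used as given. The members and all lists were chosen with earlier results of these data known. All members were named by role, and from the 11 other lists the 3 genes with the highest mean FPKM. For other motile cilia genes and multiciliation regulators, the 3 with the largest spread in log2(FPKM + 1) were added. Other genes named beside small counts were chosen after their values were seen. A call required an FPKM ratio over 3 and 1 FPKM or more in the higher library. Shares of all genes called are given as background. With 1 library per group no p-value was computed. Read numbers were approximated from the step between low FPKM values in transcripts of at least 1500 bases, with the longest GENCODE M1 transcript less 200 bases. Of genes near 1 read, 69.1 to 79.1% lay within 0.2 of a whole read, against 40.0% if spread evenly. *Dnah5*, *Dnah9* and *Dnah11* were matched to GENCODE M1 by their older RefSeq synonyms. PCR reads are not independent molecules, so intervals cover counting error only. Scripts (Python 3.11.15, numpy 2.4.6, pandas 2.3.3, scipy 1.17.1, matplotlib 3.10.9) were tested on simulated data. Alternatives were no floor, a pseudocount, a 2-fold threshold, genes above 0 in both libraries, median scaling, subtraction of the median of genes of similar GC content in 20 groups, and left-out members.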

Additional observations from a re-analysis of the deposited data

Results flagged for a closer look

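*Mlf1* drew attention because it moved in opposite directions between genotypes in the 2 bones. It was higher in *Twist1*+/- than in wild-type frontal bone (15.3 against 2.81 FPKM) and lower in the library labelled *Twist1*+/- parietal than in wild-type parietal (13.3 against 28.1 FPKM). The log2 ratio in frontal bone exceeded that in parietal bone by 3.52. With 1 library in each group, the difference was not tested.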

How the results depend on the processing

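Of 56 values recomputed under other choices, 40 stayed within the set limits and 16 moved. Without a floor, the number of members more than 3-fold apart was 24 in the parietal and 10 in the frontal genotype comparison, 16 between the wild-type bones and 2 between the libraries labelled *Twist1*+/-. With 1 FPKM added before the ratio, these numbers were 7, 1, 1 and 0, and between the wild-type bones the balance turned from 1 higher and 6 lower in parietal to 1 higher (*Mlf1*) and 0 lower. A 2-fold threshold gave 13 in the frontal genotype comparison and 4 between the libraries labelled *Twist1*+/-, where subtraction of the GC trend gave 2. The median difference in the parietal genotype comparison was 1.55 with a pseudocount of 0.1 FPKM. Summed levels without *Tppp3*, *Mlf1*, *Spa17* and *Rsph9*, left out after the data were seen, were 24.3, 7.98, 60.04 and 60.2 FPKM in wild-type frontal, wild-type parietal, *Twist1*+/- frontal and the library labelled *Twist1*+/- parietal, so that wild-type parietal went from above wild-type frontal to below it. The genes left out are the highest members in wild-type parietal, so no conclusion is drawn from that shift. The order of libraries, also checked after the data were seen, held for 22 members with a margin of 1.5-fold and for 24 after median scaling. No share of all genes is at hand for these settings. The labels pair no samples by replicate number. An additive fit of genotype and bone over the 4 libraries, which would leave 1 residual degree of freedom, was not run. The low read numbers in wild-type parietal limit how well the size of the parietal difference is known, and a single library per group leaves variation between mice unmeasured.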
